A study of Mus musculus with 70 samples.

Results

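Gene expression was measured in CD45+ cells from B16F10 tumors 7 days after sham or partial histotripsy ablation, in 3 histotripsy-treated and 10 control libraries, which are 13 of the 70 libraries of the series. All were chosen by their labels, and all genes with a name in the count table were used. B16F10 is a mouse melanoma line, injected here subcutaneously into both flanks. The hosts were C57BL/6 mice, male and female, aged 6 to 8 weeks at the start. Histotripsy is focused ultrasound that breaks up tissue mechanically without heating it, and it was aimed at most but not all of the volume of 1 tumor per mouse, while control tumors had a sham procedure. CD45, the product of Ptprc, is carried by blood-derived cells other than red cells and platelets, so the sorted fraction holds the immune infiltrate of the tumor. Comparison groups were 4 histotripsy-abscopal libraries of day 7, from the tumor on the flank opposite to the treated one, and 6 histotripsy-treated and 4 control CD45+ libraries of day 3. Mice were not randomized, and the labels give neither sex nor a batch for a library, nor whether each library came from its own mouse, so that p-values here measure the spread between these libraries. The study's text and the labels give day 7, whereas a legend of the study gives 10 days for this time point.

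Mechanical injury of a tumor releases cell contents that are sensed by pattern recognition receptors, such as Toll-like receptors and the NLRP3 inflammasome. Neutrophils and monocytes are recruited first, through CXC and CC chemokines, and make interleukin-1 and tumor necrosis factor. Dendritic cells take up tumor antigen, present it on MHC class I and class II and, after maturation, make interleukin-12 and chemokines, while CD8+ T cells and NK cells kill through granzymes and secrete interferon gamma. Macrophages that clear debris and repair tissue express arginase and resistin-like molecules instead. The comparison asks which of these programs still differed from sham 7 days after ablation.

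Depth was 972363, 2378144 and 2739931 counts in the treated libraries, of which replicate 2 was the shallowest, and 887798 to 2323203 counts in the controls. Levels are given as counts per 1000000 counts of the library (CPM), scaled by the TMM factors of edgeR, and changes as log2 fold changes, where 1 is a doubling. Ptprc itself was at 919.6, 992 and 1064 CPM in treated replicates 1, 2 and 3 and at 665 to 1205 CPM (median 967) in the controls, with a log2 fold change of 0.021 (95% interval -0.34 to 0.38). The 9 melanoma markers summed to between 168 and 294 CPM of library totals in treated CD45+ libraries and 113 to 386 CPM in controls, against 33505 to 34526 CPM in the treated and 29446 to 34729 CPM in the control CD45- cells of the same day. Keratinocyte markers were at or under 2.40 CPM in sum, and Krt5, Krt14 and Krt15 had no count in any of the 13 libraries, whereas fibroblast markers summed to at most 12.5 CPM. Markers of red cells, which CD45 does not label, were present and uneven: they summed to 262, 619.5 and 4753 CPM in the treated libraries and 384 to 2019.9 CPM (median 1441) in the controls. Xist was between 419 and 915 CPM in all 17 CD45+ libraries of day 7, with the 4 Y-linked genes at no more than 7.58 CPM in sum, although the study used both sexes.

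**Figure D1:**
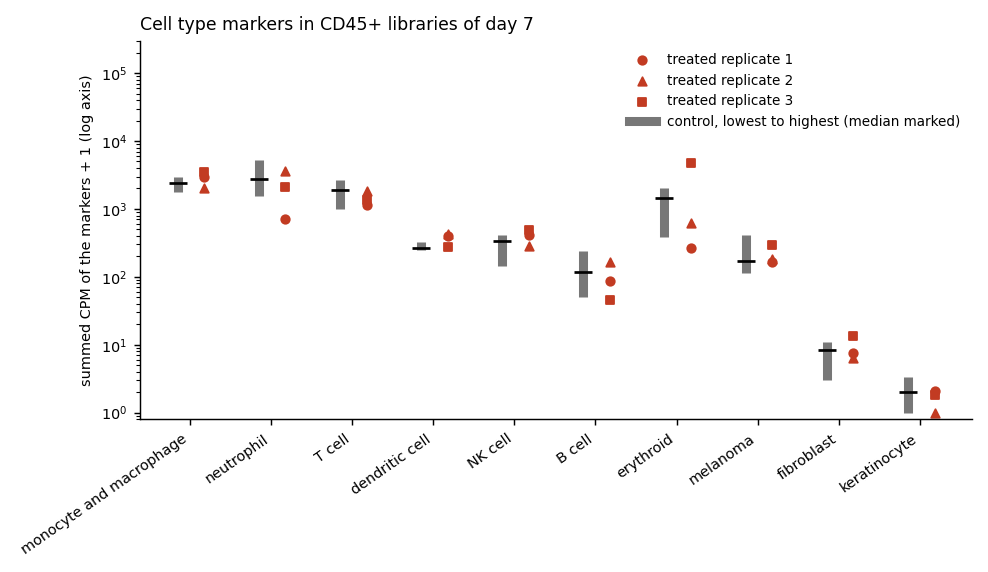
Summed CPM of the marker genes of 10 cell types in CD45+ libraries of day 7, with 1 added and on a log axis. Grey bars run from the lowest to the highest of 10 control libraries with the median marked, and red symbols are the 3 histotripsy-treated libraries. Treated replicate 1 lay under all controls for neutrophil and erythroid markers, and replicate 3 lay above all of them for erythroid markers.

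Marker levels of immune cell types were uneven among the treated libraries. Neutrophil markers summed to 717, 3594 and 2110.1 CPM in treated replicates 1 to 3, against 1558 to 5176 CPM (median 2783) in the controls, so that replicate 1 was under every control while replicate 2 was within the upper part of their range. T cell markers were at 1132, 1859 and 1362 CPM against 988 to 2636 CPM (median 1909), and all 3 were under the control median. Dendritic cell markers summed to 397, 425 and 274 CPM against 245 to 328 CPM (median 262), with replicates 1 and 2 above every control. NK cell markers were at 412, 286 and 485 CPM against 141 to 415 CPM (median 335), with replicate 3 the highest of the 13 libraries. Monocyte and macrophage markers were at 2995, 1999.6 and 3460.4 CPM against 1785 to 2928 CPM (median 2437), B cell markers at 84.7, 166 and 45.3 CPM against 49.2 to 239.6 CPM (median 117), and plasma cell markers at 108, 122 and 85.1 CPM against 45.5 to 187 CPM (median 116). Mast cell and basophil markers reached 21, 24.6 and 67.3 CPM against 12.2 to 26.2 CPM (median 15), eosinophil markers 11.6, 8.55 and 26.2 CPM against 4.65 to 26.9 CPM (median 10.5), and platelet markers 305, 115 and 312 CPM against 33.9 to 395 CPM (median 264). In sorted bulk RNA, fewer cells of a type and less RNA per cell cannot be told apart.

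No gene passed the test between histotripsy-treated and control CD45+ cells. The quasi-likelihood test of edgeR with Benjamini-Hochberg adjustment called 0 of 10817 genes (0%), with a smallest adjusted p of 0.672. At an unadjusted p under 0.05 there were 344 genes (3.18%), of which 168 were higher (1.55%) and 176 lower (1.63%). DESeq2 and limma-voom called 0 genes as well, with 271 and 396 genes at an unadjusted p under 0.05. The levels of the 3 treated libraries lay above all 10 controls for 30 genes (0.277%) and under all of them for 26 genes (0.24%). Only a fit without the filter on low counts called any gene: 32, of which 26 were in the filtered set and 4 had treated and control levels that did not overlap. That fit estimated infinite prior degrees of freedom, against 8.65 with the filter, so each gene's own spread no longer entered its test; Retnla, whose levels ranged from 10.7 to 167 CPM among the 3 treated libraries, had the smallest adjusted p there.

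The precision was enough to bound most changes. Over all genes the median half-width of the 95% interval was 0.46 on the log2 scale, and for 9076 genes (83.9%) the whole interval lay between -1 and 1. Among the 1802 genes with a mean of at least 100 CPM, the median half-width was 0.34 and the interval lay within those bounds for 1751 (97.2%). The median log2 fold change over all genes was -0.0093, and 5189 genes (48%) had a positive value. The median size of the change, regardless of sign, was 0.14 on day 7, against 0.28 on day 3.

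On principal components of the 500 most variable genes the groups overlapped. PC1 took 21.3% of the variance, and the treated libraries, at -3.12, -0.85 and 1.69, fell inside the control range of -21.6 to 16.9. The mean difference, treated minus control, was -0.99 (two-sided exact permutation test over 286 divisions of the libraries, p = 0.832, adjusted over both components p = 0.867). PC2 took 16.3%, with a difference of -1.24 (exact permutation p = 0.867, adjusted p = 0.867). The controls at the low end of PC1, replicates 2 and 8, were those with the fewest counts, 923609 and 887798, and the controls at the high end were replicates 9 and 10.

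**Figure D2:**
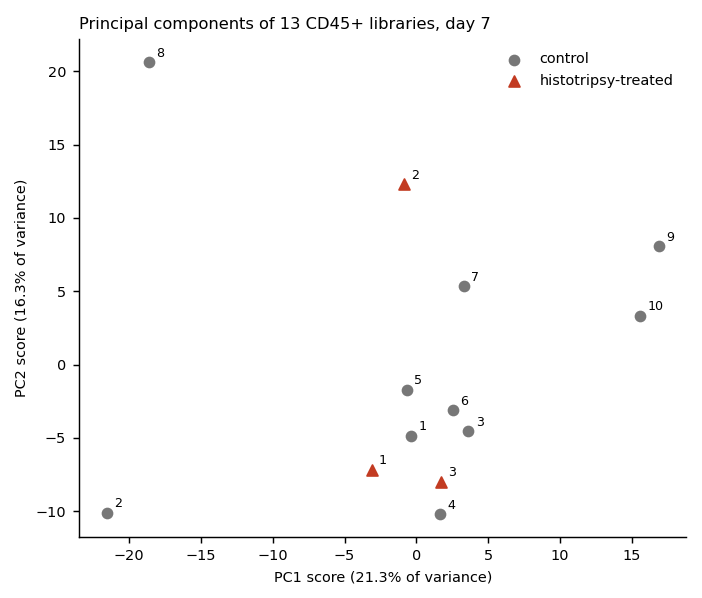
Scores of 13 CD45+ libraries of day 7 on the first and second principal component of Z-scored log10(CPM + 1) values, each point a library with its replicate number. The 3 histotripsy-treated libraries (triangles) lie among the 10 controls (circles) on PC1, between -3.12 and 1.69.

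The 6 higher genes with the smallest p-values included Il12b, a gene of mature dendritic cells, and 4 of them had groups that did not overlap, although none passed the test. Il12b encodes the p40 subunit shared by interleukin-12 and interleukin-23 (chr11:44400063-44414033, GRCm38, plus strand). It was at 27.9, 33.1 and 18.7 CPM in the treated libraries and 10.8 to 20.8 CPM (median 15.2) in the controls. Replicates 1 and 2 were above every control and replicate 3 was not, and the log2 fold change was 0.73 (SE 0.20, 95% interval 0.31 to 1.16), unadjusted p = 0.0015. Abscopal libraries had Il12b at 21.4 to 30.5 CPM, above every control, and treated against abscopal gave -0.0046 (95% interval -0.50 to 0.49). Rnase6 (chr14:51123908-51132187, plus strand), an antimicrobial ribonuclease, was at 89.4, 95.1 and 81 CPM against 48.6 to 71.1 CPM (median 57.2). Its groups did not overlap, and the log2 fold change was 0.60 (SE 0.17, 95% interval 0.26 to 0.94), unadjusted p = 0.00115. Naaa (chr5:92257659-92278170, minus strand), a lysosomal enzyme that hydrolyses N-acylethanolamines, was at 341, 216 and 224 CPM against 143 to 197 CPM (median 158), again without overlap, with a log2 fold change of 0.68 (95% interval 0.31 to 1.05), unadjusted p = 0.00068.

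The remaining 3 of the 6 higher genes were Septin3, Gcsam and Gdf15. Septin3 (chr15:82274893-82294574, plus strand), a cytoskeletal GTPase, had the smallest p among them: 75.7, 88.7 and 49 CPM against 25.7 to 49 CPM (median 32.7), a log2 fold change of 0.99 (SE 0.22, 95% interval 0.53 to 1.45) and an unadjusted p of 0.000124. Its lowest treated library, replicate 3, was level with the highest control to 3 digits, and the other two were above every control. Gcsam (chr16:45610380-45622867, plus strand), a signaling adaptor of germinal center B cells, was at 11.9, 10.7 and 9.13 CPM against 2.19 to 7.95 CPM (median 3.5), without overlap and at a low level, with a log2 fold change of 1.32 (95% interval 0.62 to 2.02), unadjusted p = 0.000585. Gdf15 (chr8:70629393-70632456, minus strand), a stress-induced cytokine, was at 336, 110.0 and 173 CPM against 75.2 to 174 CPM (median 118), and only replicate 1 stood above the controls.

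On the lower side the genes with the smallest p-values were not immune genes by name. Ccdc77 (chr6:120324323-120364374, minus strand) was at 5.79, 6.41 and 6.64 CPM against 8.75 to 19.4 CPM (median 15.2), and Zfp329 (chr7:12804977-12818858, minus strand), a zinc finger gene, at 4.71, 5.34 and 6.23 CPM against 7.65 to 16.6 CPM (median 13.5). Neither overlapped, with log2 fold changes of -1.22 (95% interval -1.78 to -0.67) and -1.25 (95% interval -1.86 to -0.64) and unadjusted p of 0.000108 and 0.000238. Gmppa (chr1:75435930-75443179, plus strand), a regulator of GDP-mannose synthesis, was at 18.5, 13.9 and 16.2 CPM against 18.8 to 29 CPM (median 23.5), also without overlap, with a log2 fold change of -0.52 (95% interval -0.87 to -0.16). Paip2, a translation repressor that binds the poly(A)-binding protein, and Twsg1, a modulator of BMP signaling, had log2 fold changes of -0.54 (95% interval -0.91 to -0.17) and -0.78 (95% interval -1.34 to -0.23), and their groups overlapped. Gm45606 (chr11:75530277-75533071, minus strand) is annotated as an antisense transcript and was at 27.2, 26.7 and 19.9 CPM against 23 to 66.3 CPM (median 45.7); the strand setting of the counting is not given in the sources used here, so its reads cannot be told apart from those of a gene on the other strand.

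**Figure D3:**
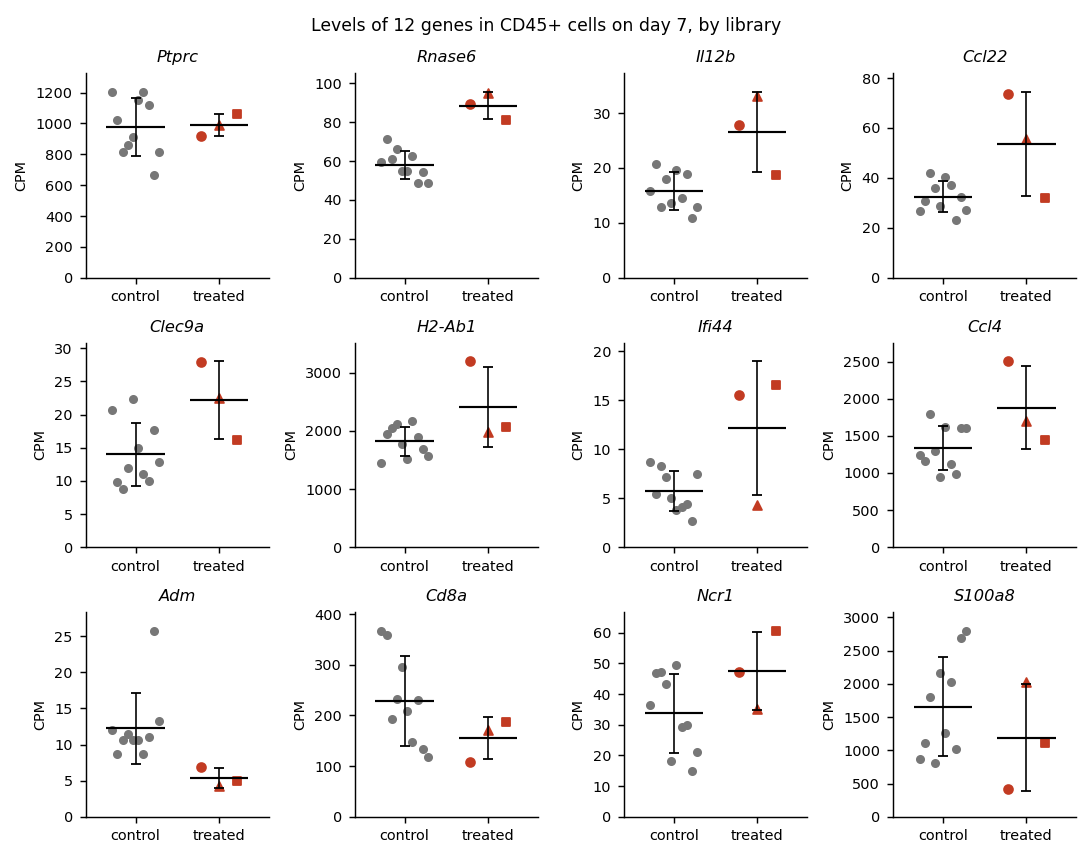
CPM of 12 genes in 10 control and 3 histotripsy-treated CD45+ libraries of day 7, each point a library, with the treated replicates 1, 2 and 3 as circle, triangle and square. Lines and bars are means and SD. Rnase6 and Adm do not overlap between the groups, whereas the treated libraries lie within the control range for Ptprc and S100a8 of replicate 1 lies under it.

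Genes of dendritic cell subsets had the highest median of the 28 gene lists, at 0.35 against -0.0093 over all genes. Of 19 tested members, 15 were positive and 6 were higher at an unadjusted p under 0.05, where 1.55% of all genes were, 0 were lower, and 0 passed the test. Ccl22, a chemokine of mature dendritic cells that attracts regulatory T cells, was at 73.5, 55.5 and 32 CPM against 23.3 to 41.8 CPM (median 31.6), with a log2 fold change of 0.71 (95% interval 0.27 to 1.16). Fscn1, the actin-bundling protein of their dendrites, was at 149, 86.5 and 61.9 CPM against 45.6 to 80.8 CPM (median 62.4), with 0.68 (95% interval 0.22 to 1.14). Clec9a, the receptor for dead cells on cross-presenting dendritic cells, was at 27.9, 22.4 and 16.2 CPM against 8.72 to 22.4 CPM (median 12.3), with 0.64 (95% interval 0.11 to 1.16). In each of these, replicate 1 was the highest treated library and replicate 3 the lowest. Leaving out replicate 1 brought the median of the list to 0.19, and leaving out replicate 2 or 3 to 0.30 or 0.42. The lower neutrophil sum of replicate 1 (717, 3594 and 2110.1 CPM in replicates 1, 2 and 3) accompanied these values, and its part in them was not tested.

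MHC class II genes, whose products present peptides to CD4+ T cells, were positive in 12 of 12 tested members, with a median of 0.33. At an unadjusted p under 0.05, 4 members were higher, where 1.55% of all genes were, 0 were lower and 0 passed the test. H2-DMb1, a subunit of the peptide-loading chaperone, was at 642, 342 and 419 CPM against 225 to 427 CPM (median 302). The chains H2-Aa and H2-Ab1 were at 3359, 1809 and 2195 CPM and 3193, 1978 and 2057 CPM, against 1402 to 2276 CPM (median 1709.8) and 1454 to 2159 CPM (median 1835). Only replicate 1 was above the controls for all 3 genes, and without it the median of the list moved to 0.12. Log2 fold changes were 0.59 (95% interval 0.11 to 1.07), 0.46 (95% interval 0.015 to 0.90) and 0.41 (95% interval 0.015 to 0.80), respectively. MHC class I genes had a median of 0.02, with 12 of 21 positive and 0 at an unadjusted p under 0.05 in either direction. H2-K1, a classical class I heavy chain, was at 2264, 2095 and 2253 CPM against 1349 to 2395 CPM (median 1932), Tap2, a subunit of the peptide transporter, had a log2 fold change of -0.60 (95% interval -1.56 to 0.37), and Erap1, which trims peptides, -0.17 (95% interval -0.56 to 0.22).

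Interferon-induced genes followed individual libraries as well. Of 32 type I interferon-induced genes tested, 28 were positive with a median of 0.25. At an unadjusted p under 0.05, 3 were higher, where 1.55% of all genes were, 0 were lower and 0 passed the test. Averaged over the list, log2(CPM + 1) was 5.68, 5.12 and 6.12 in the treated libraries and 5.22 to 5.8 (median 5.48) in the controls, so replicate 3 was above every control and replicate 2 under every control. Without replicate 3 the median was 0.0054, and without replicate 2 it was 0.42. Ifi44 was at 15.6, 4.27 and 16.6 CPM against 2.71 to 8.72 CPM (median 5.27), with a log2 fold change of 1.17 (95% interval 0.46 to 1.87). Ifih1, the cytosolic sensor MDA5, was at 141, 88.7 and 80.1 CPM against 44.4 to 98.5 CPM (median 69.6), and Usp18, which removes ISG15, at 16.3, 20.3 and 34.5 CPM against 11.4 to 24.4 CPM (median 15.8), with 0.55 (95% interval 0.14 to 0.96) and 0.54 (95% interval 0.071 to 1.01). Genes induced by interferon gamma had a median of 0.072 and 0 of 20 at an unadjusted p under 0.05. The GTPases Iigp1 and Tgtp2 had log2 fold changes of 0.31 (95% interval -0.079 to 0.70) and 0.51 (95% interval -0.17 to 1.19), and Nos2, inducible nitric oxide synthase, -1.18 (95% interval -2.46 to 0.10) at no more than 7.48 CPM in the treated libraries.

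CC chemokines and their receptors had a median of 0.25, with 12 of 14 positive. At an unadjusted p under 0.05, 4 were higher, where 1.55% of all genes were, 0 were lower and 0 passed the test. The median was 0.45 without treated replicate 2 and 0.19 without replicate 3. Ccl4, an inflammatory chemokine of myeloid and cytotoxic cells, was at 2502, 1694 and 1445 CPM against 943 to 1787 CPM (median 1268), with replicate 1 alone above the controls, and its log2 fold change was 0.49 (95% interval 0.066 to 0.92). Ccl8, a ligand of CCR8 made by macrophages, was at 44.5, 25.6 and 68.9 CPM against 10.4 to 44.7 CPM (median 23.2), with 0.88 (95% interval 0.18 to 1.58). CXC chemokines that attract neutrophils had a median of -0.28 over 5 tested genes, with 0 at an unadjusted p under 0.05. Among them Cxcl2 was at 2817, 5077 and 4219 CPM against 1991 to 10944 CPM (median 4379), Cxcl1 at 211, 217 and 144 CPM against 76.5 to 441 CPM (median 198) and Cxcl3 at 9.05, 53.4 and 26.6 CPM against 9.84 to 281 CPM (median 54.3), with log2 fold changes of -0.39 (95% interval -1.35 to 0.56), -0.28 (95% interval -1.31 to 0.74) and -1.66 (95% interval -3.3 to -0.015), and the unadjusted p of Cxcl3 was 0.061. The controls alone spanned more than the treated libraries for each of these genes. The median of this list was 0.34 with the replicate number as a block, and ranged from -0.39 to -0.14 with a library left out. Chemokines that attract T cells had a median of 0.16 and 0 of 9 at an unadjusted p under 0.05. It was -0.017 without treated replicate 1, so the positive value rested on that library. Ccl5 had a log2 fold change of 0.21 (95% interval -0.17 to 0.59), the lymph node homing receptor Ccr7 0.30 (95% interval -0.21 to 0.80) and Cxcr6, a receptor of resident T cells, -0.49 (95% interval -1.19 to 0.20). Cxcl9, which interferon gamma induces, was at 314, 113 and 269 CPM against 118 to 352 CPM (median 236).

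Sensors and inflammatory mediators were close to sham. Toll-like receptors and adaptors had a median of 0.03, with 2 of 20 higher at an unadjusted p under 0.05, where 1.55% of all genes were. Tlr3, the endosomal receptor for double-stranded RNA that cross-presenting dendritic cells carry, was at 34.4, 34.2 and 21.6 CPM against 9.81 to 25.1 CPM (median 15.9), with a log2 fold change of 0.88 (95% interval 0.32 to 1.44). Tlr1 and Tlr2, which pair to sense lipopeptides, had 0.52 (95% interval 0.031 to 1.0) and 0.28 (95% interval -0.11 to 0.68). The interleukin-1 family and inflammasome genes had a median of -0.013. At an unadjusted p under 0.05, 1 of 18 was higher and 1 lower, against 1.55% and 1.63% of all genes. Il1b was among the most abundant cytokine transcripts, at 5212, 5168 and 3164 CPM against 2829 to 6222 CPM (median 3902), with a log2 fold change of 0.068 (95% interval -0.42 to 0.56). Il1rap, the accessory chain of the interleukin-1 receptor, was at 10.1, 16 and 9.13 CPM against 11 to 33.6 CPM (median 17). Il1rl1, the receptor of interleukin-33, was at 11.9, 7.48 and 11.6 CPM against 0.845 to 10.2 CPM (median 6.3), and Il18rap, the accessory chain of the interleukin-18 receptor, had -0.26 (95% interval -0.69 to 0.17).

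For the 22 Tnf and NF-kB feedback genes the median was 0.012, and for the 24 immediate early genes -0.023, with 0 at an unadjusted p under 0.05 in either list. All 22 and all 24 of them had a 95% interval within -1 to 1, which leaves out a doubling and a halving. The NF-kB subunit Rel and its partner Bcl3 had log2 fold changes of 0.22 (95% interval -0.12 to 0.55) and 0.27 (95% interval -0.058 to 0.61), and the Tnf receptor Tnfrsf1b -0.25 (95% interval -0.70 to 0.21). Among immediate early genes, the mRNA decay factor Zfp36 had 0.22 (95% interval -0.10 to 0.53), the phosphatase Dusp2 0.26 (95% interval -0.22 to 0.74) and Ier3 -0.31 (95% interval -0.89 to 0.27).

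Macrophage genes were uneven within the treated group. Alternatively activated macrophage genes had a median of 0.093, with 10 of 15 positive. At an unadjusted p under 0.05, 3 were higher, where 1.55% of all genes were, 0 were lower and 0 passed the test. The median was 0.023, 0.21 and 0.33 without treated replicates 1, 2 and 3, and ranged from 0.018 to 0.33 over all libraries left out in turn. Over the other settings it ranged from 0.056 to 0.44. Retnla, a secreted protein that interleukin-4 induces, was at 79.7, 10.7 and 167 CPM against 3.32 to 51.4 CPM (median 17.5): replicates 1 and 3 were above every control and replicate 2 was under the control median. Its log2 fold change was 1.96 (SE 0.71, 95% interval 0.48 to 3.43), unadjusted p = 0.00707. Alox15, a lipoxygenase of macrophages and eosinophils, followed the same order of libraries, at 13, 2.14 and 23.3 CPM against 0.845 to 9.28 CPM (median 5.27). The lectin Clec10a was at 148, 71.6 and 91.8 CPM against 42.6 to 91 CPM (median 70) and Il10 at 53.9, 36.3 and 33.6 CPM against 14.2 to 42 CPM (median 28.1), with log2 fold changes of 0.61 (95% interval 0.056 to 1.17) and 0.48 (95% interval 0.032 to 0.94). Lipid-associated and complement macrophage genes had a median of 0.031 and 0 of 20 at an unadjusted p under 0.05. Lipoprotein lipase, Lpl, was at 598, 238 and 484 CPM against 163 to 517 CPM (median 313), and the adaptor Tyrobp and the fatty acid carrier Fabp5 had 0.24 (95% interval -0.11 to 0.60) and 0.33 (95% interval -0.25 to 0.90). Prostaglandin and leukotriene genes had a median of 0.17, and of 0.086 without treated replicate 1. Alox15 was the 1 gene of 16 at an unadjusted p under 0.05, on the higher side, where 1.55% of all genes were. The prostaglandin E2 receptor Ptger4 and the synthase Ptges2 had log2 fold changes of 0.28 (95% interval -0.03 to 0.59) and 0.75 (95% interval -0.06 to 1.55).

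Neutrophil genes had the lowest median of the 28 gene lists, -0.47, with 1 of 20 members positive, yet 0 were lower at an unadjusted p under 0.05. S100a8, a calcium-binding alarmin, was at 421, 2025 and 1117 CPM against 809 to 2796 CPM (median 1537): replicate 1 was under every control and replicate 2 was above the control median. The log2 fold change was -0.49 (95% interval -1.39 to 0.42). Retnlg was at 40.2, 113 and 91.3 CPM against 58.3 to 234 CPM (median 97.1), and the granule proteins Ngp and Camp were at most 7.48 and 4.57 CPM in the treated libraries, against control ranges of 2.21 to 107 CPM (median 4.25) and 0 to 46.5 CPM (median 3.33). Without treated replicate 1 the median of the list was -0.10, and without replicate 2 it was -0.78. With the replicate number as a block it was 0.0096, so that its direction depended on the fit. Controls whose number no treated or abscopal library shared did not enter the difference in that fit.

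T cell receptor and coreceptor genes had a median of -0.29, with 1 of 22 positive. At an unadjusted p under 0.05, 1 was lower, where 1.63% of all genes were, 0 were higher and 0 passed the test. The median was -0.18 without treated replicate 1 and -0.46 without replicate 2. Cd8a was at 109, 172 and 187 CPM against 118 to 367 CPM (median 219.8), with all treated libraries under the control median, replicate 1 under every control and a log2 fold change of -0.55 (95% interval -1.16 to 0.056). Cd4, by contrast, was at 20.6, 28.8 and 16.6 CPM against 9.48 to 25.7 CPM (median 17.3), with 0.26 (95% interval -0.28 to 0.81), and was the positive member. Cd6, a costimulatory receptor, was at 34.4, 40.6 and 34.9 CPM against 34.9 to 74.2 CPM (median 52.7), and the adaptor Lat and the costimulatory receptor Cd27 had -0.50 (95% interval -1.02 to 0.015) and -0.44 (95% interval -0.87 to -0.00093). Checkpoint and regulatory T cell genes had a median of -0.25, with 2 of 18 positive. Against 1.63% of all genes, 1 member was lower at an unadjusted p under 0.05. That gene was Havcr2, which encodes TIM-3, at 25, 35.2 and 42.4 CPM against 37.2 to 70 CPM (median 49.5), with -0.59 (95% interval -1.04 to -0.15). Pdcd1, which encodes PD-1, was at 34.8, 69.4 and 56.9 CPM against 41.1 to 139 CPM (median 78.1) and Nt5e, the ectonucleotidase CD73, had -0.49 (95% interval -1.1 to 0.11). The median of this list was -0.10 without treated replicate 1, -0.50 without replicate 2 and -0.15 without replicate 3.

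Cytotoxic and NK cell genes had a median of 0.04, with 13 of 22 positive. At an unadjusted p under 0.05, 2 were higher, where 1.55% of all genes were, 0 were lower and 0 passed the test. Ncr1, the NK receptor NKp46, was at 47.1, 35.2 and 60.6 CPM against 14.9 to 49.5 CPM (median 33.2), with a log2 fold change of 0.53 (95% interval -0.07 to 1.14). The NK receptors Klra4 and Klra7 were at 84, 39.5 and 110.4 CPM and 18.8, 9.61 and 31.1 CPM, against 23 to 75.3 CPM (median 60) and 5.42 to 20.2 CPM (median 11), and Klra8 had 0.62 (95% interval -0.026 to 1.26); in all 3, replicate 3 was the highest and replicate 2 the lowest. Klra genes are close paralogs, so reads may be split among them. The effectors showed no such order: Gzmb was at 81.8, 96.1 and 219 CPM against 72 to 177 CPM (median 153) and Ifng at 101, 101 and 109.6 CPM against 62.3 to 208 CPM (median 105), with log2 fold changes of -0.062 (95% interval -0.78 to 0.66) and -0.13 (95% interval -0.69 to 0.43). B cell and immunoglobulin genes had a median of -0.24, 3 of 17 positive and 0 at an unadjusted p under 0.05. Without treated replicate 3 that median was 0.10, and without replicate 2 it was -0.69. Leaving out control replicate 9 or 10 gave -0.10 or -0.16. Pax5, the B cell transcription factor, was at 18.1, 29.9 and 9.97 CPM against 7.65 to 60.3 CPM (median 28.5), and Cd79b, of the B cell receptor, and Fcer2a, the low-affinity IgE receptor, had -0.34 (95% interval -1.06 to 0.39) and -1.1 (95% interval -2.24 to 0.042).

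Glycolysis and hypoxia genes were negative in 25 of 25 tested members, which held for no other of the 28 gene lists, with a median of -0.28. Of these, 3 were lower at an unadjusted p under 0.05, where 1.63% of all genes were, 0 were higher and 0 passed. Adm, adrenomedullin, a vasodilator peptide induced by hypoxia, was at 6.88, 4.27 and 4.98 CPM against 8.75 to 25.7 CPM (median 10.8), and was the 1 gene of all the lists whose groups did not overlap. The glucose transporter Slc2a1 was at 171, 249.9 and 206 CPM against 209.9 to 426 CPM (median 292) and the phosphofructokinase subunit Pfkl at 45.6, 50.2 and 37.8 CPM against 42.8 to 91.4 CPM (median 58.3). Log2 fold changes were -1.11 (95% interval -1.92 to -0.30), -0.49 (95% interval -0.91 to -0.058) and -0.45 (95% interval -0.88 to -0.027). The median ranged from -0.32 to -0.20 when a library was left out. Averaged over the list, log2(CPM + 1) was 6.68, 6.91 and 6.74 in the treated libraries, inside the control range of 6.64 to 7.55 (median 7.04). Cell cycle genes were likewise mostly negative, 29 of 31, with a median of -0.25. At an unadjusted p under 0.05, 1 was lower, where 1.63% of all genes were. Cenpf, a kinetochore protein, was at 25.7, 26.7 and 31.1 CPM against 18.1 to 64.3 CPM (median 41.4), and the checkpoint kinase Bub1 and the ribonucleotide reductase subunit Rrm2 had -0.61 (95% interval -1.26 to 0.035) and -0.37 (95% interval -0.79 to 0.041).

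The remaining lists, on cell death, redox, iron, chaperones, matrix and respiration, had medians between -0.13 and 0.0048. Lytic cell death genes had a median of 0.0048 with 0 of 16 at an unadjusted p under 0.05. Mlkl, the pore-forming effector of necroptosis, was low, at 9.41, 3.2 and 10.4 CPM against 0 to 14.2 CPM (median 8.99), and Zbp1, which senses Z-form nucleic acid, Nlrp3 and the adaptor Tradd had log2 fold changes of 0.17 (95% interval -0.24 to 0.59), -0.36 (95% interval -1.14 to 0.42) and -0.26 (95% interval -0.60 to 0.092). Glutathione and ferroptosis genes had a median of -0.079 with 0 of 20 at an unadjusted p under 0.05. Slc7a11, the cystine importer, was at 134, 293 and 98.8 CPM against 71.1 to 488 CPM (median 178), Gpx4, which reduces lipid peroxides, had 0.47 (95% interval -0.38 to 1.32), and Gsr and Lpcat3 had -0.34 (95% interval -1.04 to 0.35) and 0.29 (95% interval -0.30 to 0.89). Hemoglobin, heme and iron genes had a median of -0.015, with Slc40a1, the iron exporter ferroportin, at -0.66 (95% interval -1.64 to 0.32), Tfrc, the transferrin receptor, at -0.22 (95% interval -0.54 to 0.092) and Blvra at 0.22 (95% interval -0.13 to 0.57).

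Heat shock chaperones had a median of -0.10, with -0.30 (95% interval -0.92 to 0.31) for Hspa1a, -0.39 (95% interval -1.22 to 0.43) for Hspb1 and -0.30 (95% interval -0.89 to 0.29) for Hsf1, their transcription factor. Hspa1a has a near-identical copy, so its counts are uncertain. Respiratory chain genes had a median of 0.0043, with Cox4i1, Cox5a and mt-Nd5 at -0.12 (95% interval -0.39 to 0.15), -0.67 (95% interval -2.05 to 0.71) and 0.19 (95% interval -0.29 to 0.67). Matrix protease genes had a median of -0.13. Mmp25, a membrane-bound protease of leukocytes, was the 1 of 16 at an unadjusted p under 0.05, on the higher side, where 1.55% of all genes were. It was at 54.7, 39.5 and 41.5 CPM against 20.3 to 45.2 CPM (median 31.9). Mmp12 and Mmp13 were at 53.9, 87.6 and 102 CPM and 16.7, 28.8 and 36.1 CPM, against 62.3 to 230.2 CPM (median 129) and 21 to 83.6 CPM (median 39.7).

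**Figure D4:**
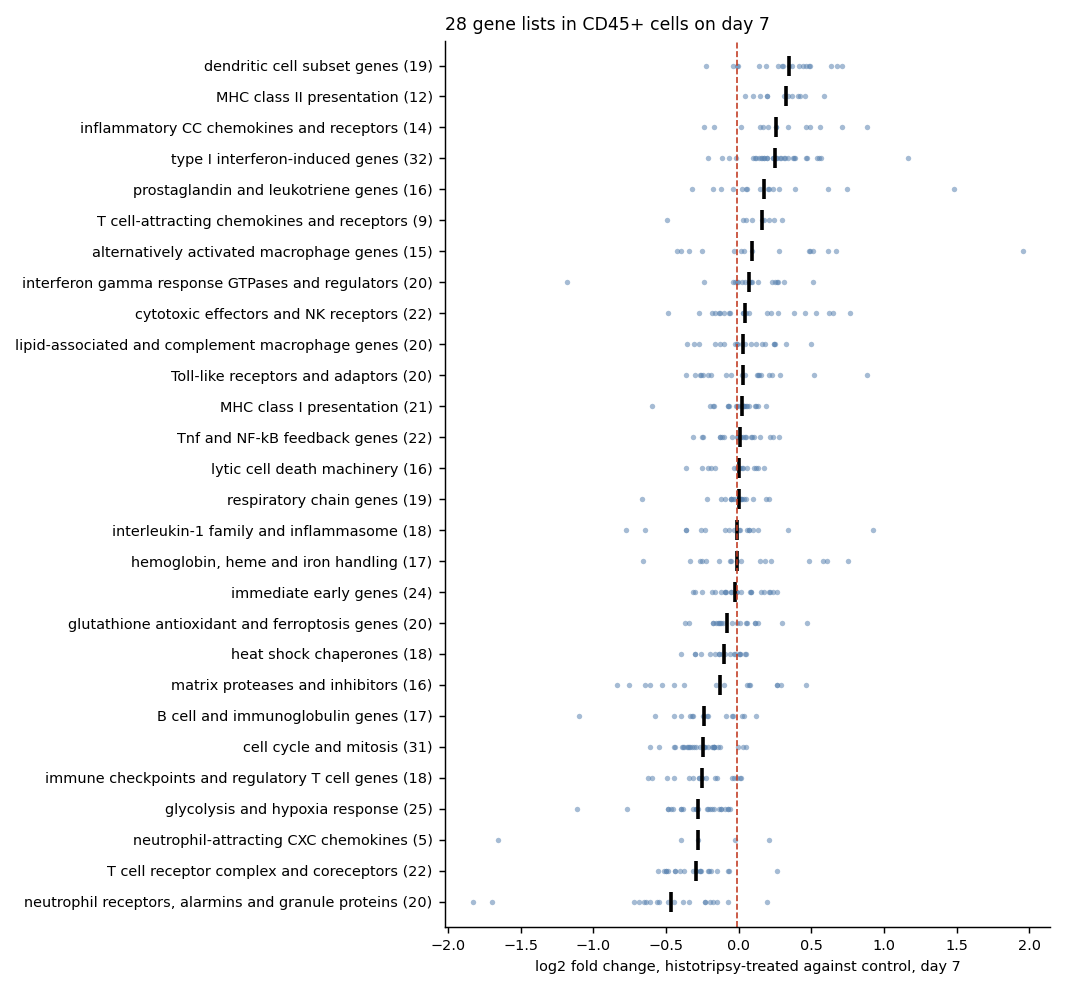
Log2 fold changes of the tested members of 28 gene lists in CD45+ cells on day 7, histotripsy-treated against control, with the number of members in brackets. Each blue dot is a gene, black bars are list medians and the dashed line is the median of all 10817 genes, -0.0093. Dendritic cell genes have the highest median and neutrophil genes the lowest.

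Against the abscopal tumors of the same day, which the study took from the untreated flank, no gene passed the test either. The fit called 0 of 10817 genes (0%), with 290 (2.68%) at an unadjusted p under 0.05, of which 149 were higher (1.38%) and 141 lower (1.3%), while DESeq2 and limma-voom also called 0. The labels do not link the tumors of 1 mouse, and both contrasts use the same treated libraries. The smallest p on the higher side was that of Gtf2e1, a general transcription factor subunit, at 27.5, 24.6 and 20.8 CPM in treated, 11.9 to 16.4 CPM in abscopal and 11.1 to 19.6 CPM (median 16) in control libraries, with a log2 fold change against abscopal of 0.74 (95% interval 0.27 to 1.2). Khsrp, an RNA decay factor, and Zhx2, a zinc finger homeobox gene, followed with 0.72 (95% interval 0.25 to 1.18) and 1.26 (95% interval 0.42 to 2.11). On the lower side stood Ccdc77, Snx19, a sorting nexin, and Gm45606, with -1.22 (95% interval -1.85 to -0.58), -1.12 (95% interval -1.77 to -0.48) and -1.04 (95% interval -1.64 to -0.43). Over the 28 gene lists the medians in treated against abscopal libraries ranged from -0.20 for lytic cell death genes to 0.72 for B cell and immunoglobulin genes. They were 0.44 for neutrophil-attracting CXC chemokines, 0.18 for dendritic cell genes, -0.12 for MHC class II and 0.42 for neutrophil genes. The B cell and immunoglobulin genes summed to 925, 1507 and 585 CPM in the treated libraries. In abscopal libraries they summed to 508 to 2577 CPM (median 731), so the groups overlapped and the highest library was abscopal.

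The day 7 profile differed from that of day 3 in the same cell fraction. In a fit of both days, the log2 fold change of treated against control differed between the days for 304 of 11251 genes (2.7%), and was lower on day 7 for 275 (2.44%) and higher for 29 (0.258%). At an unadjusted p under 0.05 there were 1775 genes (15.8%). Of the 275, 251 were called on day 3, and the median log2 fold change was 1.57 over the 258 tested on day 3 and -0.29 over the 252 tested on day 7. Of the 29, 19 were called on day 3, with medians of -0.74 over 27 and 0.31 over 28 genes tested. Both sets were chosen by this difference in the same libraries, so their medians and day 3 calls follow in part from the choice. The median of this difference over all genes was 0.011 with TMM scaling and 0.21 with library totals, under which 74 genes were higher and 161 lower, relative to a shifted center, and 190 of the 304 were called in both. The number called fell to 30, all of them among the 304, without day 7 treated replicate 1, and to 62 without replicate 3; limma-voom called 142, and a fit of only the groups compared 182. Leaving out a library of day 3 gave 202, 181, 163 and 195 calls without control replicates 1 to 4, and 172, 531 and 187 without treated replicates 3, 5 and 6. Of the 304 genes, each had the sign given here in all of these fits in which it was tested. Of the 38 called genes named here, 8 were called without treated replicate 1 of day 7: C3, Egfr, Egr3, Ets2, Gm45606, Ppm1k, Rnase6 and Tnfaip2. The calls of Casp4, Cd24a, Icam1, Il1f9, Irak2, Irf8, Klf4, Lcn2, Siglech, Slc16a3 and Tlr6 were each also lost without some single control library of day 7 and some single library of day 3.

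The genes called on day 3, 801 of 10264 (7.8%), were at or near sham level on day 7 by their medians. Of 638 genes higher in treated tumors on day 3 (6.22%), 619 were tested on day 7, where their median log2 fold change was -0.12, against 1.19 on day 3. A positive value was found for 186 (30%), where 48% of all genes had one, 7 were higher at an unadjusted p under 0.05 and 0 passed. For 439 of the 619, the 95% interval on day 7 lay within -1 to 1. Of 163 genes lower on day 3 (1.59%), all were tested on day 7, with medians of -0.87 and -0.077, and 0 passed. Day 3 values that were chosen for being called are a description and tend to overstate the change. The libraries of the 2 days do not overlap.

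**Figure D5:**
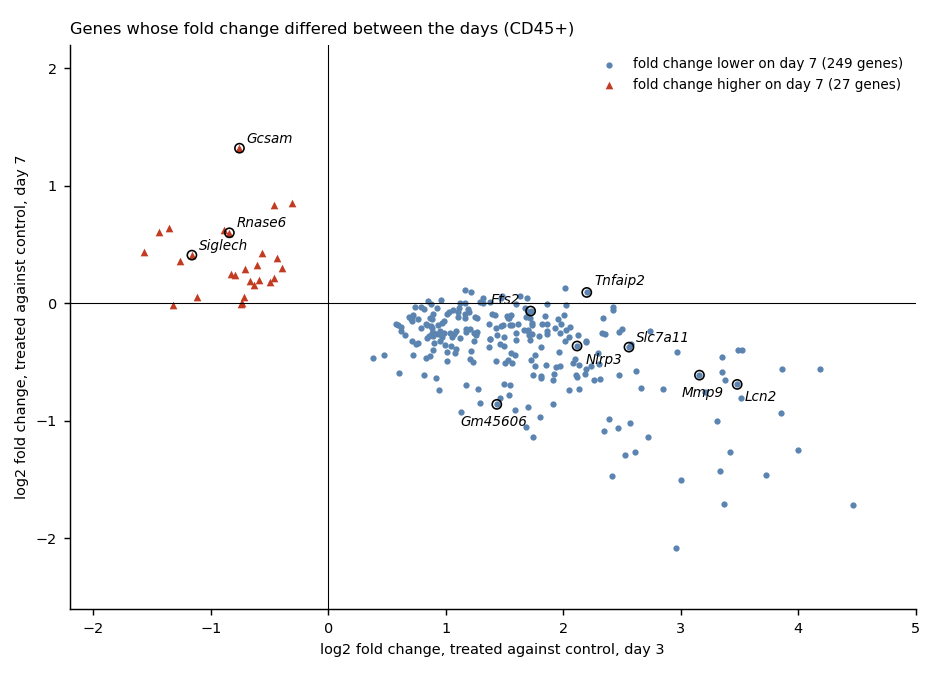
Log2 fold change of histotripsy-treated against control CD45+ cells on day 3 (x axis) and day 7 (y axis), for the called genes that were tested on each day, 249 with a lower (circles) and 27 with a higher (triangles) fold change on day 7. Genes named in the text are ringed. Of the genes with a lower fold change on day 7, those tested on day 3 have a median of 1.57 there and those tested on day 7 a median of -0.29. Genes were chosen by the difference between the 2 axes, so their place in the plot follows in part from the choice.

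Neutrophil genes made up the largest number of calls within a list. Of 22 tested, 7 had a lower fold change on day 7 and 0 a higher one, with a median difference of -2.71. Over all genes, 2.44% had a lower and 0.258% a higher fold change on day 7. None of the 7 was called without treated replicate 1 of day 7. Hdc, which makes histamine, was at 386 to 1827 CPM (median 899) in treated and 70.4 to 187 CPM (median 151) in control libraries on day 3, without overlap. On day 7 it was at 129, 444 and 267 CPM against 109 to 579 CPM (median 305), and the difference of the fold changes was -2.95 (95% interval -4.12 to -1.78), adjusted p = 0.00777 in edgeR. Mmp9, a gelatinase stored in neutrophil granules, was at 47.5 to 390.2 CPM (median 103) against 3.71 to 29.9 CPM (median 16.5) on day 3 and 11.9, 38.5 and 37.4 CPM against 10.9 to 88 CPM (median 31) on day 7, a difference of -3.73 (95% interval -5.31 to -2.15), adjusted p = 0.0101 in edgeR. The formyl peptide receptor Fpr2, the amplifying receptor Trem1, the decoy receptor Il1r2, the protease inhibitor Slpi and the siderophore-binding Lcn2 differed by -2.72, -2.88, -2.07, -1.97 and -4.14, respectively. Lcn2 lost its call under library totals. The 8 neutrophil markers summed to 1299 to 35661 CPM (median 4908) in treated and 365 to 2608 CPM (median 1475) in control libraries of day 3, and on day 7 to the values given above; their part in these differences was not tested.

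Some mediators of inflammation also had a lower fold change on day 7, whereas the CC chemokine list had a median difference of 0.51 with 1 gene called, Ccl3, which was lower. In the interleukin-1 and inflammasome list 5 of 18 genes had a lower fold change on day 7, where 2.44% of all genes had one. None of the 5 was called without treated replicate 1 of day 7. Nlrp3, the inflammasome sensor, was at 223 to 1144 CPM (median 439.8) against 79.7 to 158 CPM (median 124) on day 3 and at 148, 229 and 147 CPM against 103 to 436 CPM (median 183) on day 7, a difference of -2.45 (95% interval -3.6 to -1.31), adjusted p = 0.0199 in edgeR. Il1f9, an interleukin-36 cytokine, Il1rap and Casp4, the sensor of cytosolic lipopolysaccharide, differed by -3.96, -2.29 and -1.14, and Il1r2 is the fifth gene. Of 22 Tnf and NF-kB feedback genes, 4 had a lower fold change on day 7: Tnfaip2, Ier3, Icam1, the adhesion molecule, and Nfkbid, by -2.09, -2.01, -1.64 and -1.25. Immediate early genes gave 4 of 24, Egr3, Ier3, Egr1 and Klf4, by -2.59, -2.01, -1.66 and -1.01. Of these, Casp4, Icam1, Nfkbid, Egr1 and Klf4 lost the call under library totals. In the Tnf and immediate early lists, which share Ier3, only Tnfaip2 and Egr3 kept the call without treated replicate 1 of day 7. Il1r2 is also in the neutrophil list.

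Single members of other lists had a lower fold change on day 7 too. Acod1, which makes itaconate, was at 784 to 6235 CPM (median 2371) against 384 to 575 CPM (median 484) on day 3 and 346, 1015 and 574 CPM against 308 to 1204 CPM (median 676) on day 7, a difference of -2.7 (95% interval -3.88 to -1.52). Slc7a11 was at 209 to 1633 CPM (median 463) against 50.9 to 163 CPM (median 101) on day 3, and its difference was -2.9 (95% interval -4.31 to -1.5), adjusted p = 0.0271 in edgeR. The complement component C3, the chemokine Ccl3, the haptoglobin gene Hp, the membrane-rupture protein Ninj1, Ptgs1, which encodes cyclooxygenase 1, and Cd24a, which is also a marker of cells other than dendritic cells, differed by -2.08, -1.77, -1.98, -1.61, -2.74 and -2.01. The lactate exporter Slc16a3, the receptor Tlr6 and the kinase Irak2 differed by -1.37, -2.08 and -1.39 and were not called under library totals, nor was Cd24a. The smallest p-values on the lower side belonged to Gm45606, Egfr and Ets2. Ets2, a transcription factor downstream of Ras signaling (chr16:95702075-95721051, plus strand), was at 633 to 1819 CPM (median 969) against 314 to 349.6 CPM (median 329) on day 3 and 442, 566 and 357 CPM against 318 to 653 CPM (median 428) on day 7, a difference of -1.77 (95% interval -2.37 to -1.17), adjusted p = 0.00323 in edgeR. Egfr, the epidermal growth factor receptor (chr11:16752203-16918158, plus strand), was at 4.94 to 19.9 CPM (median 11.4) against 0 to 1.85 CPM (median 0.516) on day 3 and at 1.09, 1.07 and 0 CPM against 0.459 to 4.08 CPM (median 1.78) on day 7, a level too low to pass the filter of the day 7 fit, and Gm45606 differed by -2.28 (95% interval -3.03 to -1.53).

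Genes with a higher fold change on day 7 included 2 members of the dendritic cell list, and both of these calls rested on single libraries. Of 19 dendritic cell genes, 2 were called higher, Siglech and Irf8, and 1 lower, Cd24a. Over all genes, 0.258% were called higher and 2.44% lower. Siglech, a lectin of plasmacytoid dendritic cells, was at 8.15 to 38.2 CPM (median 14.7) in treated and 38 to 43.9 CPM (median 42.7) in control libraries on day 3, and at 47.8, 64.1 and 42.4 CPM against 22.6 to 55.6 CPM (median 36.9) on day 7, a difference of 1.6 (95% interval 0.70 to 2.49), adjusted p = 0.0375 in edgeR. Irf8, the transcription factor that dendritic cells need, differed by 0.71 (95% interval 0.31 to 1.11), adjusted p = 0.0414 in edgeR. Both were lost in the fit of libraries with at least 1000000 counts and with the replicate number as a block, and Irf8 also without a filter and with only the groups compared. The call of Siglech was lost without any 1 of treated replicates 1, 2 and 3 or control replicate 10 of day 7, or of treated replicates 4 and 6 or control replicates 2, 3 and 4 of day 3. That of Irf8 was lost without any 1 of treated replicates 1, 2 and 3 or control replicates 6, 7, 9 and 10 of day 7, or of treated replicates 2, 3, 4 and 6 or any control of day 3. The smallest p-values on this side were those of Rnase6, Ppm1k and Lair1. Rnase6 was at 29.2 to 43.2 CPM (median 37.1) against 55.6 to 77.8 CPM (median 64.4) on day 3 and at 89.4, 95.1 and 81 CPM against 48.6 to 71.1 CPM (median 57.2) on day 7, and the groups did not overlap on either day but in opposite order, with a difference of 1.46 (95% interval 0.97 to 1.95), adjusted p = 0.00323 in edgeR. Ppm1k, a mitochondrial phosphatase, the inhibitory collagen receptor Lair1 and Gcsam differed by 1.53 (95% interval 0.91 to 2.15), 1.02 (95% interval 0.56 to 1.48) and 2.1 (95% interval 1.02 to 3.18). The cell cycle, T cell receptor, cytotoxic, MHC class II and type I interferon lists had 0 called genes in this comparison, with median differences of 0.46, 0.27, 0.51, 0.40 and 0.19.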

How the data were processed

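RNA of flow-sorted CD45+ cells was sequenced by QuantSeq, which reads the 3' end of poly(A) transcripts, with 101-base single-end reads. The authors trimmed reads with Trim Galore 0.5.0, aligned them with STAR 2.6.0, collapsed reads by their unique molecular identifiers and used featureCounts for the genes of GRCm38. What was deposited are unnormalized whole-number counts, tabulated by cell fraction and day. Counts thus stand for molecules, as far as the identifiers are read without error, and do not scale with transcript length. The strand setting is not given in the sources used here. Tables hold 55487 named lines, 234 of which share 114 symbols and were kept apart; the unnamed line of each CD45+ table equals 100% of the column totals and was left out. Of the columns in the 3 tables used, 0 had no sample. CD45- day 3 counts were not used here.

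Libraries were grouped by their labels. Library totals ranged from 887798 to 2739931 counts in the groups compared on day 7, and CT010467.1, a ribosomal RNA transcript, took 6.78% to 10.5% of them. No replicate pair differed by as little as sampling noise (smallest chi-square per degree of freedom 2.35), so each library was counted. Counts were tested with edgeR 4.0.16 in R 4.3.3 (TMM scaling, filterByExpr with minimum count 10 and minimum total 15, quasi-likelihood test, threshold of 0.05 on p adjusted by Benjamini-Hochberg). The main fit held the 17 CD45+ libraries of day 7 with a term per group; the difference between days was an interaction in a fit of both tables, and each day's CPM was scaled within its own table. Standard errors are Wald errors from the quasi-dispersions, and intervals are at 95% and can leave out 0 where the p slightly exceeds 0.05. Principal components used log10(CPM + 1), the 500 most variable genes and Z-scores (numpy 2.4.6). The fits were tested on simulated data.

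The 28 pathway lists, 17 marker lists and the libraries described were chosen with earlier results of these data known, so lists are described by counts and medians, without tests of their own. Named genes are up to 6 per direction with the smallest unadjusted p and a mean of at least 10 CPM, up to 3 per list, 12 fixed genes, and up to 3 per direction for each further contrast; other named members of the lists are those called in the comparison of the days, and Retnla in the fit without a filter was chosen after its value was seen. Coordinates are from GENCODE M21 on GRCm38, which matched 10738 of 10817 tested genes by symbol or synonym. Alternatives were DESeq2 1.42.0, limma-voom 3.58.1, library totals, no filter, only the compared groups, libraries of at least 1000000 counts, single libraries left out, the replicate number as a block, CT010467.1 left out and, for principal components, a pseudocount of 0.1, 2000 genes, no Z-scores and TMM-scaled CPM.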

Additional observations from a re-analysis of the deposited data

Results flagged for a closer look

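The log2 fold change of treated against control differed between day 7 and day 3 by the interaction test for 304 genes, among them Gcsam (2.1), Rnase6 (1.46), Ppm1k (1.53) and Lair1 (1.02), which were higher on day 7. The fold change was lower on day 7 for Gm45606 (-2.28), Il1rap (-2.29), Nlrp3 (-2.45), Ier3 (-2.01), Slc7a11 (-2.9), Egfr (-5.69) and Ets2 (-1.77).

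Single control libraries stood far from the other 9 for 7 of 149 sets of values examined, where chance alone gives about 1 in 20. Control replicate 9 had the highest level of 4 genes: Fcer2a at 27.1 CPM (others at most 10.5), Adm at 25.7 CPM (others 8.75 to 13.3), Hspb1 at 30.5 CPM (others at most 17.7) and Cox5a at 20.3 CPM (others at most 10.6). Control replicate 5 had Ngp at 107 CPM (others at most 16.4) and Camp at 46.5 CPM (others at most 8.08), both genes of immature neutrophils. Control replicate 3 had mt-Nd5 at 2326 CPM, against 882 to 1646 CPM in the others.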

How the results depend on the processing

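Treated against control on day 7 gave 0 called genes in each fit but the one without a filter, with 32; treated against abscopal gave 0, and 17 without a filter. The number of genes that differed between the days was 304, and 142 with limma-voom, 182 with only the groups compared, 628 without a filter and 25 with the replicate number as a block, and it ranged from 30 to 531 with a library left out. The labels do not say that the number pairs libraries. Deviations of same-numbered treated and control libraries of day 7 had correlations of 0.007, 0.026 and 0.009. With the block, a library whose number no other group of its day shared did not enter the differences, so most controls of day 7 were left out. Values with the block thus rest on other controls than the main fit. Treated against control still gave 0 with the block. DESeq2 called 448, library totals 235, the deeper libraries 282 and the fit without CT010467.1 303. The PC1 difference of -0.99 was 3.37 with 2000 genes and ranged from -2.90 to 3.08 with a library left out, and p stayed above 0.05 in every setting.

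List medians moved as well. With the block they were -0.16 for glycolysis and hypoxia, -0.52 for cell cycle, -0.50 for T cell receptor, 0.11 for heat shock and 0.05 for matrix protease genes. Over all settings other than a left-out library, medians reached -0.27 for cytotoxic, 0.31 for lipid-associated and 0.31 for heme and iron genes. They reached 0.23 for immediate early and 0.11 for interleukin-1 genes. With a library left out, medians near 0 changed sign: they ranged from -0.14 to 0.074 for MHC class I, -0.079 to 0.16 for interferon gamma, -0.081 to 0.11 for cytotoxic, -0.052 to 0.13 for Toll-like receptor, -0.082 to 0.14 for lipid-associated, -0.064 to 0.10 for Tnf and NF-kB, -0.077 to 0.032 for immediate early, -0.30 to 0.065 for heme and iron, -0.12 to 0.033 for lytic death, -0.19 to 0.023 for heat shock and -0.053 to 0.02 for respiratory chain genes.

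Some of the named genes had a log2 fold change on day 7 of the opposite sign in another setting. With the replicate block the values were 0.19 for Cxcl2, 0.34 for Cxcl1, -0.11 for H2-K1, 0.31 for Slc40a1, 0.12 for Nlrp3, -0.044 for Zbp1, -0.093 for Dusp2, 0.074 for Ier3, 0.33 for Hspa1a, 0.070 for Hspb1, -0.033 for mt-Nd5, -0.038 for Cd4, -0.10 for Cxcl9, 0.39 for Slc7a11, -0.31 for Mlkl and 0.16 for Ets2. In libraries of at least 1000000 counts they were -0.035 for mt-Nd5, 0.036 for Ifng, 0.010 for Gzmb and -0.14 for Il1b, and Cxcl9 was at -0.040 with limma-voom. With a library left out, Rel ranged from -0.028 to 0.44, Ptprc from -0.044 to 0.060, Gzmb from -0.66 to 0.19, Cxcl9 from -0.26 to 0.33, Il1b from -0.059 to 0.27, Mlkl from -0.19 to 0.25 and Ets2 from -0.25 to 0.083. None of these values passed the test, and the cause of each was not tested. The depth of 887798 to 2739931 counts leaves genes under about 10 CPM with few counts per library.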
